A study of Rattus norvegicus with 6 samples.

Results

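The miR-322, miR-503, miR-351, miR-542, miR-450b and miR-450a hairpins form a microRNA cluster on the rat X chromosome, and its mature arms were followed in the hearts of control rats and of rats with chronic colitis. Every probe named for these hairpins, whichever arm it detects, was taken, which gave 12 arms of 6 hairpins among the 761 rat miRNAs on the array. The cluster was picked because its miR-450 arms were much lower in colitis on these same arrays. Its differences between the groups are therefore given as a description, with standard errors but without p-values. The study asked which heart miRNAs change with chronic colitis. RNA came from the hearts of adult Sprague Dawley rats, and 1 heart was hybridized per array. The 3 control rats, animals 9, 10 and 11, received no dextran sulfate sodium (DSS). The 3 DSS rats, animals 13, 14 and 16, had colitis caused by 3% DSS, a sulfated polysaccharide that injures the colon epithelium. It was given in 4 cycles over 8 weeks, each of 5 days followed by 9 days of plain drinking water. All animals were male, and colitis was induced chemically, so no transgene or mutant line was involved.

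MicroRNAs are short RNAs that pair with messenger RNAs, mostly through the seed at their 5′ end, and lower the output of those messengers. Each hairpin precursor is cut into a duplex whose arms are called 5p and 3p, and usually 1 arm is kept in the silencing complex while its partner is degraded, so arms of the same hairpin can reach very different levels. Rodent miR-322 is the counterpart of human miR-424. Together with miR-503 it is known for lowering cell cycle regulators and for its part in muscle differentiation, and miR-542 and miR-450 lie close by on the same strand.

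In the rat genome build GRCr8 the 6 hairpins lay on the minus strand of chromosome X within chrX:137720933-137726241, a span of 5309 bases. In the direction of transcription the order was Mir322, Mir503, Mir351, Mir542, Mir450b-1 and Mir450a1. Mir503 began 220 bases after Mir322 and Mir351 a further 659 bases on. Mir542 followed after the widest gap, 2861 bases. Mir450b-1 came 1029 bases later, and only 54 bases separated it from Mir450a1. The hairpins of Mir322, Mir503 and Mir351 lay within the span of an annotated long noncoding RNA gene, LOC102550366 (chrX:137724960-137729208), and the other 3 hairpins overlapped no other annotated gene. The nearest protein-coding genes were Hprt1 on the side of Mir450a1 and Plac1 on the side of Mir322.

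The mature sequences of the arms described most closely are printed 5′ to 3′ as RefSeq gives them, with the seed, bases 2 to 8, in capitals. They are shown because shared seeds and near-identical sequences decide which probes can be read as separate measurements. All 12 array targets were identical to the RefSeq mature sequence.
rno-miR-322-5p: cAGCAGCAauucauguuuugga
rno-miR-322-3p: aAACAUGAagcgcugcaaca
rno-miR-503-5p: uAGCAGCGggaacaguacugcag
rno-miR-503-3p: gGAGUAUUguuuccgcugccugg
rno-miR-351-5p: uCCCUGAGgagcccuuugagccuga
rno-miR-542-3p: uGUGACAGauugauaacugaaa
rno-miR-450b-5p: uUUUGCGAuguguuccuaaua
rno-miR-450b-3p: aUUGGGGAcgcuucgcauuca
rno-miR-450a-5p: uUUUGCGAuguguuccuaaugu
The 5p arms of miR-450a and miR-450b have the same seed and differ by only 2 edits over their whole length. The probes for these arms may bind each other's target, so their values are not independent measurements. No other pair involving an arm of the cluster came within 3 edits. The seed of miR-322-5p occurs in 5 other miRNAs on the array, miR-15a-5p, miR-15b-5p, miR-16-5p, miR-195-5p and miR-497-5p, whereas miR-503-5p shares with them bases 2 to 7 and not base 8. The seed of miR-351-5p occurs in miR-125a-5p and miR-125b-5p. Beyond these groups, no arm of the cluster shared bases 2 to 8 with a miRNA on the array.

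Between 223 and 365 miRNAs were detected per array. A miRNA counted as detected when at least 2 of its 4 spots passed. A spot passed when it rose over the background by more than 3 SD of the empty spots. Its own SD from the scanner also had to stay below 0.5 of that rise. The background was 35.4 to 95.4 brightness units, and the detection limit lay 20.0 to 59.3 units above it. limma was applied to the 282 miRNAs with detection on 3 or more arrays. Of these, 139 passed an adjusted p (Benjamini-Hochberg) of 0.05, 80 lower and 59 higher in DSS hearts, but scaling each array to its spike-in probes turned this split to 2 lower and 151 higher. No miRNA was called by limma without DSS replicate 16, although 124 were past an unadjusted p of 0.05, and the count was 82, 90 and 66 when control replicate 9, control replicate 11 or DSS replicate 14 was left out. The heart muscle markers miR-1-3p, miR-133a-3p, miR-133b-3p and miR-499-5p were detected on all 6 arrays, whereas miR-208a-3p was detected on 1 array and miR-208b-3p on none.

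Of the 12 arms, 8 were detected on enough arrays to be tested and 4 were not. miR-322-5p, miR-322-3p and miR-351-5p were detected on all 6 arrays. The 5 other tested arms were detected on some arrays only. For miR-503-3p, miR-450a-5p and miR-450b-5p these were all 3 control arrays and that of DSS animal 13. The limits differed, at 20.3 units above background for DSS animal 13 and 59.3 and 52.4 for animals 14 and 16. An arm that enters the test through the group in which it is bright must differ to some degree, so the count of tested arms carries no weight of its own. Among the arms that were not tested, miR-503-5p, miR-351-3p and miR-450a-3p were detected on no array and miR-542-5p on 1. Over the 39 pairs of arm and array with detection, the CV between repeated spots ran from 4.65% to 34.0%, with a median of 13.6%.

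miR-450a-5p, miR-450b-5p and miR-322-5p had the lowest differences of the cluster, and these 3 arms stayed lower in DSS hearts under every scaling between arrays that was tried. After cyclic LOWESS the other arms of the same hairpins lay closer to 0, and miR-450b-3p was higher in DSS hearts. From the authors' processed intensities as log2(value + 1), however, miR-322-3p lay at -2.15 and miR-322-5p at -2.13. miR-450a-3p was detected on no array, so its value does not show a smaller change. The values that follow are log2 normalized signals unless another scale is named, and fold changes are taken on that scale, which understates the change of dim probes. RNA came from whole tissue, so fewer cells of a type and less RNA per cell cannot be told apart.

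miR-450b-5p, whose difference the choice of the cluster rested on, read 10.39, 9.00 and 9.51 in control animals 9, 10 and 11 and 7.83, 6.27 and 6.68 in DSS animals 13, 14 and 16. Every DSS value was below every control value, and among DSS hearts only animal 13 gave a detected signal. The group means were 9.63 ± 0.71 and 6.93 ± 0.81 (SD, n = 3 each), a difference of -2.71 (SE 0.50), or 6.53-fold lower, with 2 of the 3 DSS arrays not above the detection limit. In the authors' processed intensities, which are linear, it read 1580, 489 and 724 in control and 199, 5 and 25 in DSS hearts, so the 12.2-fold ratio of the means, 931 and 76.3, rests on DSS values near 0 in animals 14 and 16.

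The values of miR-450a-5p were 10.42, 9.19 and 9.49 in control and 7.88, 6.39 and 6.72 in DSS hearts, with DSS animal 13 again the only DSS heart above the detection limit. The means of 9.70 ± 0.64 and 7.00 ± 0.78 (SD, n = 3 each) differed by -2.70 (SE 0.48), which is 6.50-fold. On each array it lay between -0.03 and 0.19 log2 units of miR-450b-5p, its near-identical neighbor.

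The partner arm of miR-450b moved the other way. miR-450b-3p read 7.01, 7.20 and 6.79 in control hearts and 7.67, 7.23 and 7.48 in DSS hearts, so that all DSS values were above all control values, although animal 14 exceeded the highest control by only 0.03. The means were 7.00 ± 0.21 and 7.46 ± 0.22 (SD, n = 3 each), a difference of 0.46 (SE 0.20), or 1.38-fold higher. It was detected on 2 control and all 3 DSS arrays. In the authors' processed intensities the means were 42.3 and 103. The 3p arm of miR-450a was detected nowhere, and its values of 6.04 to 6.36 in control and 5.97 to 6.22 in DSS hearts overlapped.

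miR-322-5p read 12.70, 11.26 and 12.21 in control and 11.11, 9.78 and 9.74 in DSS hearts. The groups did not overlap, but control animal 10 and DSS animal 13 came within 0.15 of each other. The means were 12.06 ± 0.73 and 10.21 ± 0.78 (SD, n = 3 each), a difference of -1.84 (SE 0.50), or 3.59-fold lower. The partner arm was lower too. miR-322-3p read 9.26, 8.82 and 8.75 in control and 8.00, 7.33 and 7.37 in DSS hearts, with no overlap and a tighter spread within each group. Its difference was -1.38 (SE 0.26), or 2.60-fold lower, but it turned to 0.27 under spike-in scaling. In the authors' processed intensities the ratio of control to DSS means was 3.99 for miR-322-5p and 4.18 for miR-322-3p.

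Of the miR-503 arms, miR-503-5p was not detected on any array, at 6.64, 6.77 and 6.47 in control and 6.26, 6.32 and 6.29 in DSS hearts, so its fold change is not given. miR-503-3p read 7.63, 7.54 and 7.32 in control and 6.93, 6.47 and 6.74 in DSS hearts, without overlap. Its difference was -0.78 (SE 0.20), or 1.72-fold lower, but it turned to 1.02 under spike-in scaling and 0.08 under 5S rRNA scaling. Among DSS hearts only animal 13 gave a detected signal. Animals 14 and 16 stood 48.5 and 40.7 units above background, below their own limits but above the limit of 20.3 for animal 13.

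miR-351-5p, a relative of miR-125 by its seed, had the smallest difference among the tested arms that were lower in DSS hearts. It read 7.54, 7.30 and 7.36 in control and 7.27, 6.65 and 7.04 in DSS hearts. The groups just failed to overlap, and the highest DSS value, from animal 13, was 0.03 below the lowest control. Its difference was -0.41 (SE 0.21) after cyclic LOWESS, but 1.43 under spike-in scaling, 0.48 under 5S rRNA scaling and 0.22 without scaling. The 3p arm was detected on no array, at 6.12, 6.15 and 6.07 in control and 6.25, 6.34 and 6.28 in DSS hearts.

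miR-542-3p varied most among control hearts, at 8.21 in animal 9, 6.74 in animal 10 and 7.25 in animal 11, and read 6.56, 5.92 and 6.10 in DSS hearts. It was detected in control animals 9 and 11 and in DSS animal 13. The means were 7.40 ± 0.75 and 6.19 ± 0.33 (SD, n = 3 each), a difference of -1.21 (SE 0.39), or 2.31-fold lower, but the difference was 0.44 under spike-in scaling. miR-542-5p was detected on 1 array, and its values of 6.45, 6.49 and 6.36 in control and 6.41, 6.27 and 6.32 in DSS hearts overlapped.

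**Figure D1:**
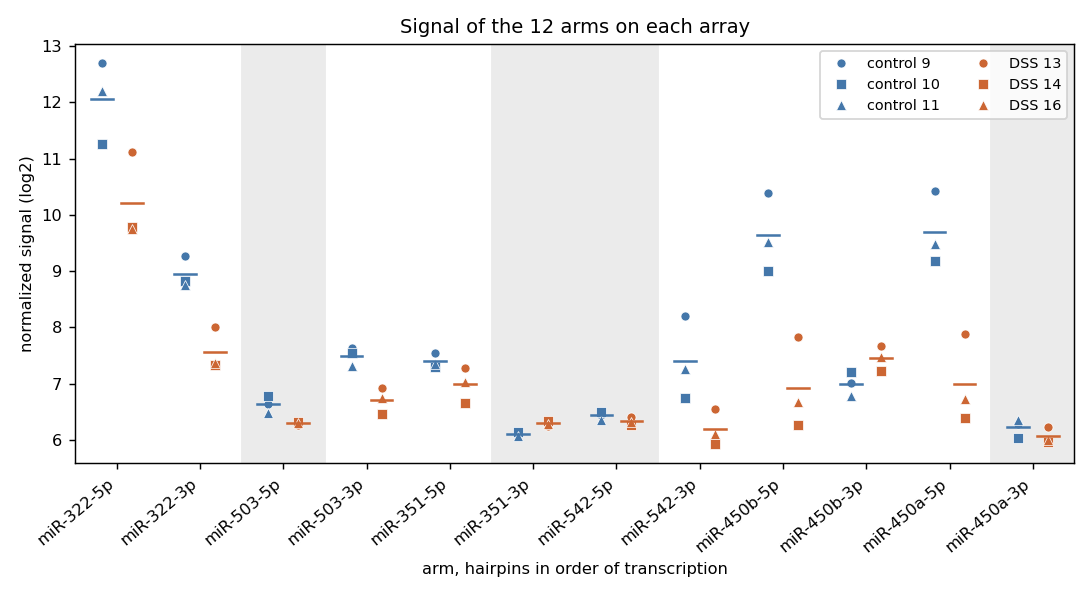
Log2 normalized signal of the 12 arms (x axis, hairpins in the order of transcription) on each of the 6 arrays, with control hearts in blue, DSS hearts in orange, 1 symbol per animal and a bar at each group mean; gray bands mark the 4 arms that were not tested. The DSS values of miR-450b-5p and miR-450a-5p, 6.27 to 7.88, sit below all their control values of 9.00 to 10.42, whereas the undetected arms lie between 5.97 and 6.77 in both groups.

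Counted over the cluster, 6 of the 8 tested arms were called lower in DSS hearts by limma and 0 were called higher (6 lower and 0 higher at an unadjusted p of 0.05). Under spike-in scaling 0 were called lower and 2 higher, miR-351-5p and miR-450b-3p, and under 5S rRNA scaling 2 were called lower and 1, miR-450b-3p, higher. For comparison, 28.4% of all tested miRNAs were called lower and 49.3% were called in either direction. All DSS values lay below all control values for 7 of the 8 arms, against 34.8% of tested miRNAs, and above them for 1 arm, against 31.6%. Since the cluster was chosen on this contrast, nothing is read from these counts. The median difference was -0.60 over the 12 arms and 0.00 over the 761 miRNAs on the array. Over the 8 tested arms it was -1.29, beside -0.06 over the 282 tested miRNAs. The number of arms called lower was 3 when DSS replicate 14 was left out and 0 when DSS replicate 16 was, where 6 arms were still past the unadjusted p.

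**Figure D2:**
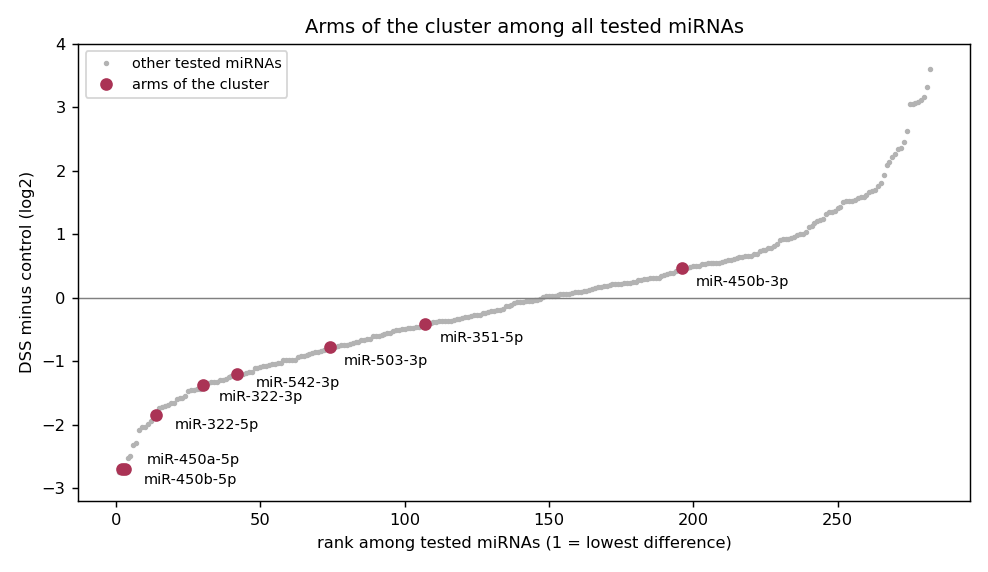
Difference between DSS and control means (y axis, log2) of the 282 tested miRNAs against their rank (x axis, 1 for the lowest), with the 8 tested arms of the cluster in red and named. The arms run from ranks 2 and 3, miR-450b-5p at -2.71 and miR-450a-5p at -2.70, to rank 196, miR-450b-3p at 0.46, under cyclic LOWESS scaling.

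The differences of the tested arms were spread widely, with an SD of 1.10 beside 1.18 over all tested miRNAs. In the direction of transcription, the 8 tested arms lay at -1.84 and -1.38 (miR-322-5p and -3p), -0.78 (miR-503-3p), -0.41 (miR-351-5p), -1.21 (miR-542-3p), -2.71 and 0.46 (miR-450b-5p and -3p) and -2.70 (miR-450a-5p). No test between arms was run, because all of them were chosen on the same contrast.

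**Figure D3:**
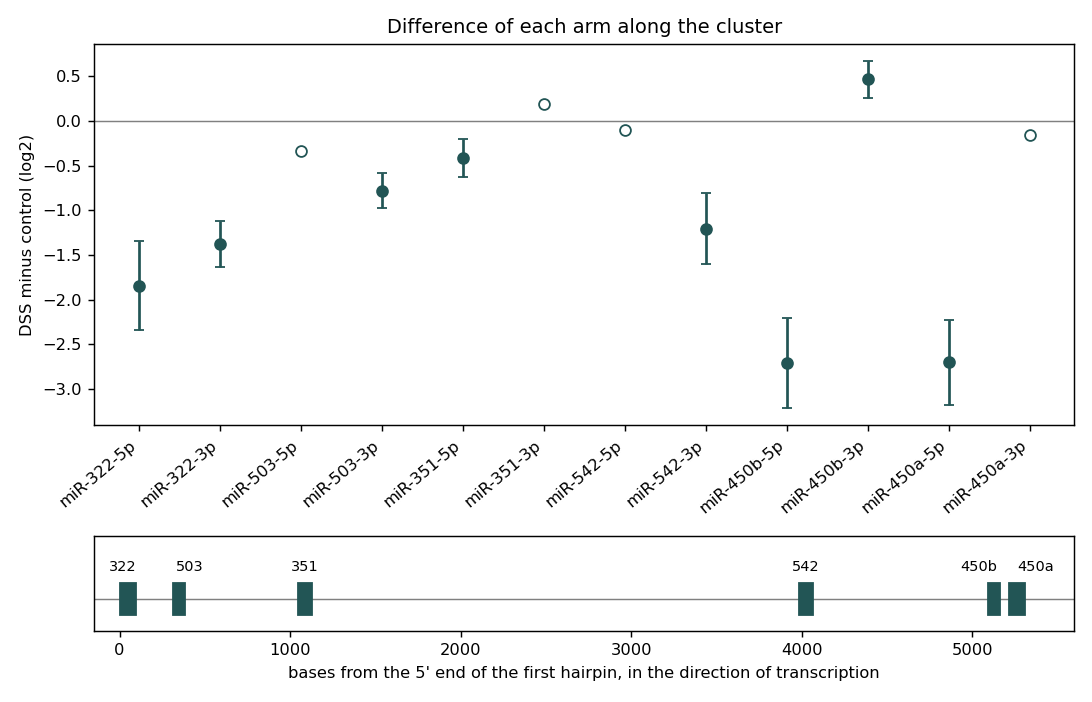
Difference between DSS and control means of each arm (upper axis, log2; bars are 1 SE, open circles are arms not tested) above the positions of the 6 hairpins (lower axis, bases from the 5′ end of Mir322). The 5p arms of the closely spaced miR-450b and miR-450a hairpins lie at -2.71 and -2.70, and miR-450b-3p lies at 0.46 under cyclic LOWESS scaling.

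Within a hairpin, the change of the difference between its 5p and 3p signals shows whether both arms changed equally. For miR-450b this difference was 3.39, 1.80 and 2.73 log2 units in control animals 9, 10 and 11 and 0.16, -0.96 and -0.80 in DSS animals 13, 14 and 16. The groups did not overlap, and the mean change was -3.17. The 5p arm was not detected in DSS animals 14 and 16, and the 3p arm was not detected in control animal 9. The size of the change therefore rests in part on readings near background. A single factor per array cancels in this difference, so the scalings of that kind all give -3.38 and cannot test it. The change was -3.48 after quantile normalization and -6.0 after plain background subtraction. It is a description, since the miR-450 arms were used to choose the cluster. For miR-322 the difference was 3.44, 2.44 and 3.46 in control and 3.11, 2.45 and 2.38 in DSS hearts, which overlapped, with a mean change of -0.47 and values from -1.07 to 0.02 over the alternatives. The corresponding changes were -0.60 for miR-351, 0.44 for miR-503, -2.54 for miR-450a and 1.10 for miR-542, each of which involves an arm that was detected on at most 1 array.

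The highest animal of each group was mostly the same from arm to arm. Control animal 9 had the highest control value in 7 of the 8 tested arms, and DSS animal 13 had the highest DSS value in all 8. DSS animal 14 gave the lowest DSS value in 7. For miR-503-3p, miR-542-3p, miR-450a-5p and miR-450b-5p, however, neither animal 14 nor animal 16 gave a detected signal. The order of animals 14 and 16 is therefore not read for these arms. Over all 282 tested miRNAs, control animal 9 was the highest control for 49.3% and DSS animal 13 the highest DSS heart for 46.1%. The arms are read on the same arrays and are not replicates of each other.

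The other miRNAs with the seeds of the cluster were taken by their shared seed. This list was drawn up with earlier results of these data known. Its adjusted p-values come from the fit over all miRNAs and are not an independent test. All 7 were tested, and 3 were called lower and 1 higher in DSS hearts. Over all tested miRNAs, 28.4% were called lower and 49.3% in either direction, so nothing is read from the count of relatives. Under spike-in and 5S rRNA scaling none of the 7 was called lower. Under spike-in scaling 2 were called higher, miR-125a-5p and miR-15b-5p. Their sequences, from the array targets, show the seed shared with miR-322-5p or miR-351-5p.
rno-miR-16-5p: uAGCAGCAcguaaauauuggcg
rno-miR-195-5p: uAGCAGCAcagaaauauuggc
rno-miR-497-5p: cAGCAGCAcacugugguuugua
rno-miR-125a-5p: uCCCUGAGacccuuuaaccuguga
miR-16-5p, a widely expressed miRNA known for restraining the cell cycle, fell by 1.58 (log2, SE 0.37, limma adjusted p = 0.0180). miR-195-5p, which is known for a part in the end of heart muscle cell division after birth, fell by 1.44 (SE 0.33, limma adjusted p = 0.0170). Both stayed below 0 under spike-in scaling, at -0.56 and -0.42. miR-497-5p, from the same hairpin cluster as miR-195, fell by 0.99 (SE 0.24, limma adjusted p = 0.0182), but its difference was 0.64 under spike-in scaling. miR-15a-5p, at -1.44 (SE 0.53), and miR-15b-5p, at 0.78 (SE 0.38), did not pass, with limma adjusted p = 0.0597 and 0.121. miR-15a-5p was called lower, however, after plain subtraction, after quantile or 75th percentile scaling and with either transform of the authors' intensities. The same call was made with detection on all 6 arrays, with detection at 5 SD and when control replicate 10 was left out. Of the relatives of miR-351-5p, miR-125a-5p rose by 1.21 (SE 0.38, limma adjusted p = 0.0356), and this call was lost when control replicate 9, control replicate 10 or any DSS replicate was left out. It was lost too after plain subtraction, without background correction, without scaling, after quantile, 75th percentile or 5S rRNA scaling, with either transform of the authors' intensities and with no filter on dim probes. miR-125b-5p did not pass at -0.22 (SE 0.19, limma adjusted p = 0.370). The median over the 7 was -0.99, beside -0.06 over all tested miRNAs. Only 1 was called lower when DSS replicate 14 was left out, and 0 when DSS replicate 16 was.

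**Figure D4:**
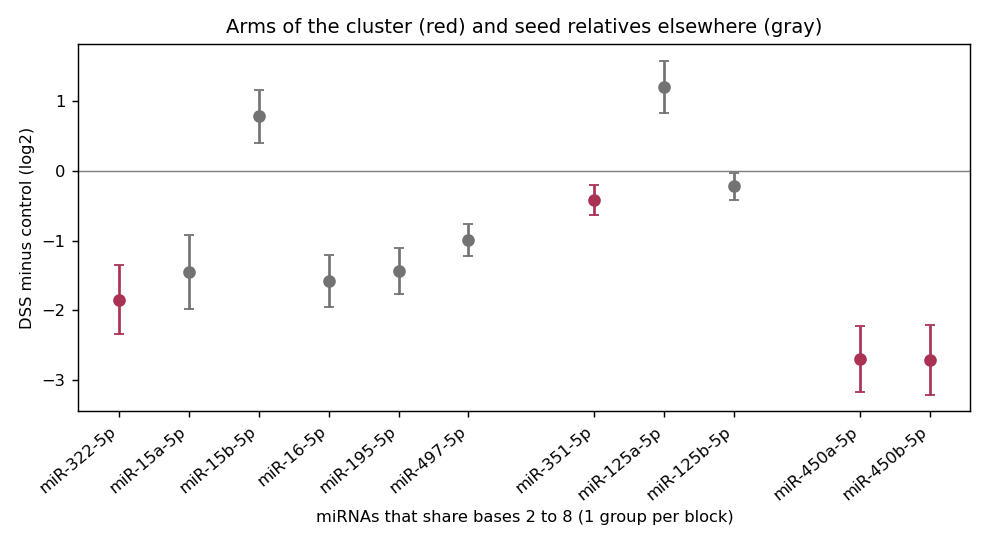
Difference between DSS and control means (y axis, log2; bars are 1 SE) of cluster arms (red) and of miRNAs elsewhere with the same bases 2 to 8 (gray), in 3 groups. In the group of miR-322-5p the relatives run from -1.58 for miR-16-5p to 0.78 for miR-15b-5p under cyclic LOWESS scaling, and in that of miR-351-5p miR-125a-5p lies at 1.21.

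Clusters of hairpins elsewhere were set beside this cluster without a test of the difference. Their calls stand beside 28.4% of all tested miRNAs called lower and 49.3% called in either direction. The miR-532 cluster, also X-linked, has 10 arms on the array, of which 4 were tested and 0 were called by limma in either direction (1 higher at an unadjusted p of 0.05). Under spike-in scaling all 4 were called higher and under 5S rRNA scaling 3, and 1 was called higher after plain subtraction, after quantile normalization, without scaling, from the authors' intensities as log2(value + 1) and when DSS replicate 13 was left out. After cyclic LOWESS their differences ran from -0.07 to 0.50 with an SD of 0.27. For the miR-17~92 cluster, known for driving proliferation, arms were taken by miRNA name, which gave 15 on the array, and 4 were tested. The names include further gene copies, such as miR-19b-2-5p and miR-92a-2-5p. The 3p arms of miR-19b and miR-92a therefore cannot be placed at 1 locus. miR-19b-3p fell by 1.55 (SE 0.40, limma adjusted p = 0.0213) and miR-20a-5p by 1.19 (SE 0.28, limma adjusted p = 0.0182), although under spike-in scaling these stood at 0.13 and 0.30. miR-17-5p, at -0.65, and miR-92a-3p, at 1.11, did not pass, with limma adjusted p = 0.0803 and 0.0501. miR-92a-3p was called higher under spike-in and 5S rRNA scaling and when control replicate 10 was left out. It was also called higher with detection on all 6 arrays, with detection at 5 SD and with spots combined by their median. miR-17-5p was called lower from the authors' intensities as log2(value + 32). Over the 4 tested arms of this group the SD was 1.18. Over both clusters, 1 arm was still called lower after control replicate 9 was left out, and 0 after either DSS replicate 14 or DSS replicate 16 was left out.

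The 5 tested miRNAs outside the cluster whose profile over the 6 arrays came nearest to the mean profile of the 8 tested arms were miR-126a-3p, miR-22-3p, miR-29a-3p, miR-24-1-5p and miR-195-5p. Each profile was centered on its own mean, and likeness was the root mean square distance in log2 units. The distances were 0.0810, 0.104, 0.121, 0.125 and 0.135, compared with a median of 0.762 over the 274 miRNAs compared. miR-195-5p is also a seed relative of miR-322-5p. Among the arms themselves, miR-322-3p lay nearest to the cluster mean at 0.128, and the miR-450 arms lay farthest, at 0.728 for miR-450a-5p, 0.743 for miR-450b-5p and 0.948 for miR-450b-3p.

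Base composition affects hybridization. As a description across the 282 tested miRNAs, which share arrays and are not replicates, G and C content and difference correlated with r = 0.060. The median difference of tested miRNAs was -0.25 in the 55 with under 40% G and C bases, -0.36 in the 93 with 40% to under 50%, -0.05 in the 96 with 50% to under 60% and 0.15 in the 38 with 60% or more. miR-450b-5p has 33.3%, miR-450a-5p 36.4% and miR-542-3p 31.8%, all in the lowest class, whereas miR-351-5p is in the highest. Set against the median of its own class, miR-450b-5p lay at -2.46, miR-450a-5p at -2.46, miR-322-5p at -1.48 and miR-542-3p at -0.96. miR-322-3p lay at -1.02, miR-503-3p at -0.74, miR-351-5p at -0.57 and miR-450b-3p at 0.51.

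Markers of several cell types moved with the groups, and their part in the differences of the cluster was not tested. The values are summed authors' processed intensities per heart, and the calls are those of limma. Over all tested miRNAs, limma called 28.4% lower and 49.3% in either direction. The cluster summed to 4720 to 11391 in control and 913 to 3209 in DSS hearts. Most of this was miR-322-5p alone, at 6988, 2879 and 5092 in control and 2275, 645 and 830 in DSS hearts. The endothelial pair, miR-126a-3p and miR-126a-5p, summed to 15387 to 17475 and 4303 to 13555, with 1 of 2 lower. The erythroid markers, miR-451-5p, miR-144-3p and miR-144-5p, summed to 2332 to 6492 and 210 to 908, with 2 of 2 tested lower. However, miR-486, another blood-cell miRNA that was not on this list, went the other way, with a log2 difference of 2.36. Smooth muscle markers (miR-143-3p and miR-145-5p) summed to 14009 to 16715 and 7488 to 10174, with 1 of 2 lower, and fibroblast markers (miR-199a-5p, miR-199a-3p and miR-214-3p) to 5267 to 5374 and 3301 to 4313, with 2 of 3 lower and 1 higher. The 5 leukocyte markers (miR-223-3p, miR-142-3p, miR-142-5p, miR-150-5p and miR-155-5p) summed to 2078 to 5080 in control and 7921 to 10863 in DSS hearts, with 2 of 3 tested higher and 1 lower. That sum follows mainly miR-150-5p, with a log2 difference of 1.59, and miR-155-5p was at 0.65, whereas miR-223-3p lay at -1.35, miR-142-3p at -0.47 and miR-142-5p at -0.48. The arms of miR-142 were detected on 1 array each and miR-144-3p on none. miR-155-5p passed the detection filter only through its DSS hearts, since no control heart gave a detected signal for it. A miRNA tested that way must differ to some degree, so nothing is read from its call. The 6 heart muscle markers summed to 51445 to 55306 and 56646 to 90203, with 1 of 4 tested lower and 1 higher. That sum follows miR-1-3p, which was higher by 3.11, whereas the other 5 had differences from -2.09 for miR-499-5p to -0.30 for miR-208b-3p. Under spike-in scaling miR-451-5p alone was called lower among these markers.

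Whether the cluster as a whole was lower depended on what the arrays were scaled to. The median over the 12 arms, -0.60 after cyclic LOWESS, was 1.05 under spike-in scaling and 0.10 under 5S rRNA scaling. The median of all tested miRNAs also moved, to 1.56 and 0.62. Relative to that median of all tested miRNAs, the 12 arms had a median of -0.53 after cyclic LOWESS, -0.52 under any scaling by a single factor per array, which shifts all miRNAs alike and cannot change this value, -1.57 after plain background subtraction and -1.86 from the authors' intensities as log2(value + 1). Which scaling reflects the RNA in a heart was not tested. miR-450b-5p ranged from -1.07 under spike-in scaling to -2.71 under cyclic LOWESS and miR-450a-5p from -1.08 to -2.72 under quantile normalization. For miR-322-5p the range was -0.81 to -2.20, the latter under 75th percentile scaling. miR-450b-3p was above 0 under all 6 scalings.

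**Figure D5:**
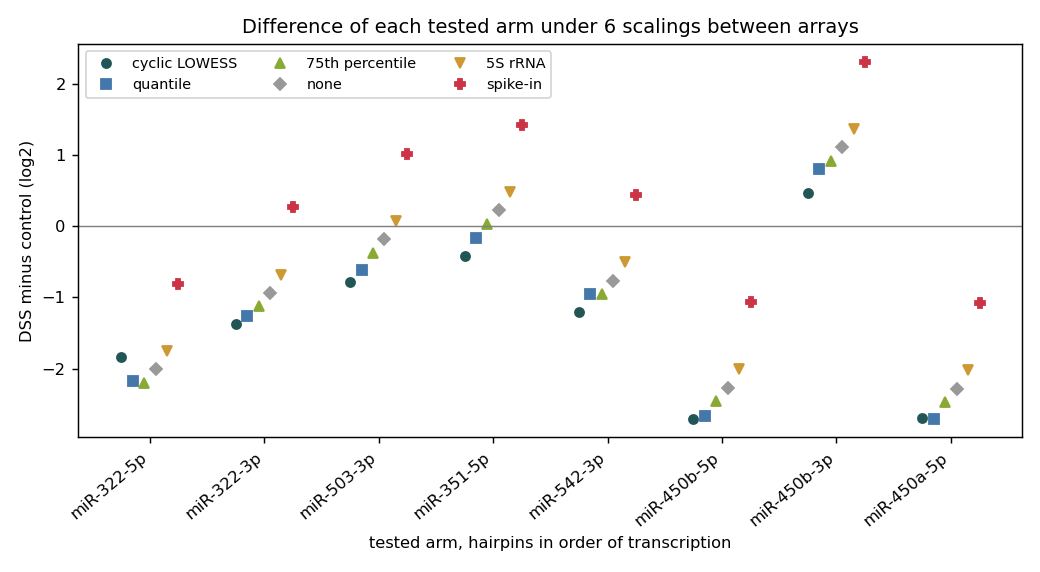
Difference between DSS and control means (y axis, log2) of the 8 tested arms (x axis) under 6 ways of scaling between arrays, 1 symbol per scaling. miR-322-5p, miR-450b-5p and miR-450a-5p are below 0 under all of them and miR-450b-3p above 0, whereas miR-322-3p, miR-503-3p and miR-542-3p, lower after cyclic LOWESS, are at 0.27, 1.02 and 0.44 under spike-in scaling.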

How the data were processed

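Heart RNA was measured on 6 single-color (Cy5) µParaflo arrays, 1 per rat, with 4 spots for each of 761 rat miRNAs. Samples were grouped by their labels. For each array the authors deposited scanner intensity values, on a linear scale and without normalization, and they also deposited 1 table of intensities that they had background-subtracted and normalized with a LOWESS filter, for 810 probes of which 49 are controls. The rule by which they combined repeated spots is not given in the sources used here. From the scanner intensities, background was corrected with normexp (offset 50), repeated spots were combined by their mean log2 value, and arrays were scaled by cyclic LOWESS (span 0.7, 3 iterations) over the miRNA probes. Detection took as background the median over the 25% of miRNA spots that were dimmest. Those 282 miRNAs with detection on 3 or more arrays were fitted with limma 3.58.1 in R 4.3.3 (lmFit and eBayes, no covariates), with p-values adjusted by the Benjamini-Hochberg method and a threshold of 0.05. The fit was tested on simulated data with changes of random sign and no shift in signal between arrays. The simulation therefore does not bear on the choice of scaling. Sequences and GRCr8 positions came from RefSeq, whose table held 688 of the 761 array names. Figures were drawn with matplotlib 3.10.9 in Python 3.11.15.

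Named were all arms of the cluster, the lists described, and the 5 nearest profiles. The cluster, the lists and the tests were chosen with earlier results of these data known. In all, 20 alternatives were run. The number of arrays limits the precision, and the p-values measure the spread between 3 hearts per group.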

Additional observations from a re-analysis of the deposited data

How the results depend on the processing

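Without scaling between arrays, 2 arms of the cluster were called lower, the groups of 3 arms did not overlap with DSS lower, the median over the 12 arms was -0.16, and 1 arm of the comparison clusters was called lower. With spike-in scaling these values were 0, 2, 1.05 and 0, and with 5S rRNA scaling 2, 1, 0.10 and 0, and 0 seed relatives were called lower under either. Spike-in scaling reversed miR-322-3p (0.27), miR-503-3p (1.02) and miR-542-3p (0.44), and 5S rRNA scaling reversed miR-503-3p (0.0769). The median over the 12 arms was -1.47 after plain background subtraction and -1.92 from the authors' processed intensities as log2(value + 1). With no filter on dim probes, 74 miRNAs were called in either direction, and 1 seed relative and 0 arms of the comparison clusters were called lower. With only miRNAs detected on all 6 arrays, 3 arms of the cluster were tested, of which 2 were called lower and 3 did not overlap, and 1 arm of the comparison clusters was called lower, as it was with detection at 5 SD. The methods' t-test called 0 miRNAs after adjustment, 155 at an unadjusted p of 0.05, and hence 0 arms, 0 seed relatives and 0 arms of the comparison clusters. The causes were not tested. Leaving out 1 array at a time, limma called 0 to 140 miRNAs in either direction, and 0 to 5 arms of the cluster, 0 to 4 seed relatives and 0 to 2 arms of the comparison clusters lower. The lowest counts came without DSS replicate 16. miR-450b-3p was called higher under plain subtraction, quantile normalization, no scaling, 5S rRNA scaling, spike-in scaling and both transforms of the authors' intensities.

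No paired analysis was possible because control and DSS animals carry different numbers. A slide or scan block was not run, since the files used here name neither. Arms near the detection limit give differences that are compressed by the background, and values of undetected arms have no order.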
